A study of Mus musculus with 3 samples.

Results

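The primary cilium and intraflagellar transport genes described here are 35 genes, out of 21150 named genes on the array, chosen by name and read through every probe whose RefSeq accession belongs to them. All 35 were on the array, with 46 probes: 24 genes had 1 probe and 11 had 2. They were measured in 3 cell populations of the mouse pancreas, namely cells of acinar-to-ductal metaplasia (ADM, the change in which acinar cells take on duct-like features), duct cells and acinar cells. Frozen pancreas of 3 wild-type mice, taken 48 h after pancreatitis was induced with caerulein (a cholecystokinin analogue), was laser-microdissected to obtain them. Untreated pancreas was not analysed here, and the labels state neither the age or sex of the mice nor whether the animals were pooled for an array. Each population had 1 Agilent 1-colour array, so no difference below has a replicate check and no test between groups was possible.

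A primary cilium is a single microtubule-based antenna that grows from the mother centriole and carries receptors and channels of its own. Intraflagellar transport builds and maintains it: IFT-B trains carried by kinesin-2 move cargo to the tip, and IFT-A trains carried by dynein-2 bring it back, while the BBSome ferries membrane proteins and the transition zone guards the base. In the pancreas, duct and islet cells carry primary cilia, acinar cells are described as lacking them, and loss of ciliary proteins in mice leads to dilated or cystic ducts.

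Levels are log2 processed signals minus the 75th percentile of the array, so 0 is that percentile and 1 unit is a 2-fold difference; levels of different probes are not comparable with each other. A pair of arrays was compared for a gene unless both signals failed the scanner software's flag for being well above background, and differences of 2-fold or more were counted. A dimmer side that failed the flag gives only a bound, marked by "at least". A bound under 2-fold was counted as within 2-fold, although the difference itself may be larger. The brightest probe stands for a gene.

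RFX transcription factors bind the X-box of many cilium genes. Promoter windows of RefSeq (build GRCm38.p6, 250 bases before to 50 after a gene's start) were available for 30 of the 35 genes, in 32 windows. The X-box core GTTGCC, searched on both strands, was in 12 of the 32 windows (37.5%), against 12.5% of all 32851 windows. Each match is shown 5′ to 3′ with the core in capitals and the bases after it, where its partner in a full X-box would lie. The set is shown because the core was found in more of these windows than any other motif searched.
Arl13b (chr16:62847202-62847229, minus strand): acgctccaGTTGCCtagttaccagagcc
Bbs1 (chr19:4906607-4906634, minus strand): ctgagctgGTTGCCaaggcgacgcctgg
Bbs5 (chr2:69647205-69647220, plus strand): gccggcgcGTTGCCtt
Bbs7 (chr3:36613491-36613518, minus strand): gcgccccgGTTGCCttggaaaccggcca
Ift140 (chr17:25015963-25015990, minus strand): ggcgcgagGTTGCCgtcacaacacgccc
Ift172 (chr5:31291095-31291122, minus strand): gcactcacGTTGCCtgtgcgtcagcggt
Ift27 (chr15:78174071-78174098, minus strand): tgatgatgGTTGCCaggagcctgtttgg
Ift57 (chr16:49699199-49699226, plus strand): cgggtctgGTTGCCgtggtgaccggctg
Ift57 (chr16:49699226-49699253, plus strand): gccctgcgGTTGCCtggtaacggtgggg
Ift88 (chr14:57424078-57424105, minus strand): gcccagccGTTGCCaggcgcgactccaa
Kif3a (chr11:53567263-53567290, plus strand): ccgcaggcGTTGCCccagtctagcgtcc
Nphp4 (chr4:152478135-152478162, plus strand): gcatcccgGTTGCCagctgatgttgggc
Rfx2 (chr17:56831105-56831132, minus strand): tggtaaccGTTGCCgggcgcaacgcccc
The paired X-box GTTNCCNNGGNAAC, which holds GTTNCC on both strands and so overlaps the core, was in 1 of the 32 windows, that of Bbs7, against 0.451% of all windows. Only this spacing of the pair was searched. In the second Ift57 match shown, ggtaac follows the core at a shorter spacing, which the paired search could not find. The core stood in windows of genes that were highest in duct (Ift57, Ift88, Rfx2) and of genes that were not (Ift140, Nphp4). A match is letters in a window and no evidence of binding.

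The windows of Kif12 and Pkd2 are given because the levels of both genes stepped down in the order duct, ADM, acinar, as described below. Neither window held the X-box core, which says nothing of sites elsewhere in these loci. Pkhd1 and Rfx2 stepped down likewise, and the core was in the window of Rfx2 but not in that of Pkhd1.
Kif12 (chr4:63172082-63172381, minus strand): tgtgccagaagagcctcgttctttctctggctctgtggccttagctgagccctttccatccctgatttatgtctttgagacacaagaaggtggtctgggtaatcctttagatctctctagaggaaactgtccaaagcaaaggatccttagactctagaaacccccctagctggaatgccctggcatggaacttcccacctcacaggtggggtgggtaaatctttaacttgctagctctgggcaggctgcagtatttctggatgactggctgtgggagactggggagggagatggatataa
Pkd2 (chr5:104459207-104459506, plus strand): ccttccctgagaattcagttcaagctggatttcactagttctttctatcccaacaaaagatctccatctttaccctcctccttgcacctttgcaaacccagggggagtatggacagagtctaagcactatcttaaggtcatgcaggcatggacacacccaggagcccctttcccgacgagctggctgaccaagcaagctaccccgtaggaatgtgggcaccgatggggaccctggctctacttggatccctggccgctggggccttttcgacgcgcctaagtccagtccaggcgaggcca

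The arrays carried the labels' cell types as far as markers show. All 11 compared duct markers were at least 2-fold higher in duct than in acinar, and all 12 acinar markers were at least 2-fold lower, though 12 of them were well above background in ADM and 11 in duct. Their summed signal, relative to the 75th percentile, was 7968 in ADM, 1400 in duct and 24978 in acinar, and 11 of the 12 were higher in ADM than in duct. Against duct, 8 of 11 duct markers were lower in ADM and 1 higher (median -1.43), and against acinar 6 of 11 were higher in ADM and 1 lower, with sums of 62.1 in ADM, 152.5 in duct and 22.6 in acinar. Among duct markers, Cftr was not well above background on any array. Fibroblast and stellate markers were higher than in acinar for 8 of 9 compared in ADM and 8 of 10 in duct, with summed signals of 316 in ADM, 309 in duct and 78.7 in acinar. Macrophage markers were higher in ADM than in duct for 8 of 11 and than in acinar for 9 of 11, with sums of 305 in ADM, 72.8 in duct and 80.4 in acinar. Islet markers summed to 1179 in ADM, 666 in duct and 751 in acinar. Endothelial markers were higher in duct than in acinar for 4 of 6 and lower for 1 (median 2.67). Vwf was at least 21.2-fold and Plvap 11.1-fold higher, Kdr was 2.31-fold lower, and Eng differed by 0.09 log2 units. With normexp, 3 of the 6 were higher and 0 lower (median 0.94). In ADM against duct, 5 of 7 endothelial markers were lower and 1 higher (median -1.42). Endothelial sums were 14.03 in ADM, 21.3 in duct and 15.2 in acinar. Duct and endothelial markers thus had the same directions as the median of the cilium genes in duct against acinar and in ADM against duct. The share of probes well above background was 49.7% in ADM, 50.03% in duct and 40.7% in acinar. In such dissected tissue, fewer cells of a type and less RNA per cell cannot be told apart, and the part of admixed cells in the results below was not tested.

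Of the 35 cilium genes, 31 were well above background in ADM, 31 in duct and 24 in acinar, and 21 were so on all 3 arrays. Over all named genes the shares were 61.3% in ADM, 61.3% in duct and 50.9% in acinar, and 9539 of the 21150 were so on all 3 arrays. Tulp3 and Foxj1 were well above background in duct alone, Kif3b in ADM alone, and 7 genes (Ift81, Ift172, Bbs2, Bbs7, Pkhd1, Invs and Rfx2) in ADM and duct but not acinar. Nphp4 and Cep290 lacked the flag in duct alone and Dync2li1 in ADM alone, and Bbs10 was not well above background anywhere. The shares of all genes with these other patterns were not computed. The lowest level that passed the flag was -3.15 in ADM, -3.28 in duct and -2.04 in acinar. Ift81 thus passed at -2.98 in ADM, while Pkhd1 did not at -2.37 in acinar.

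**Figure D1:**
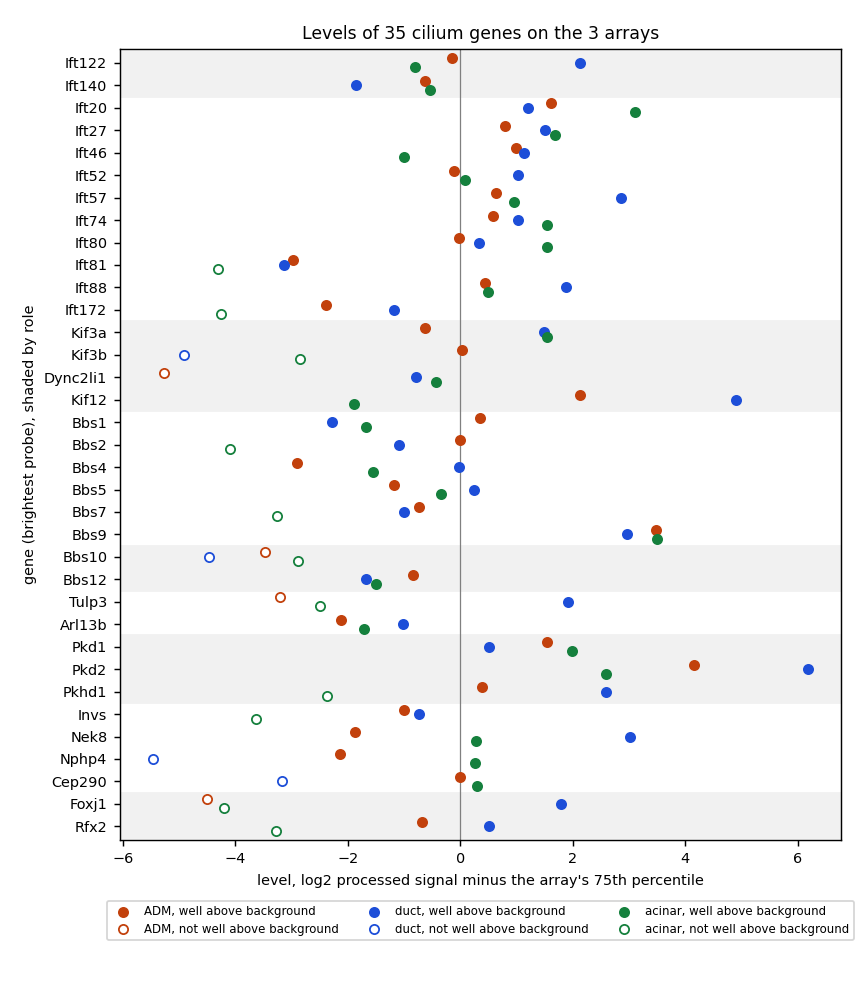
Level of each of the 35 cilium genes (log2 processed signal minus the array's 75th percentile, x axis) on the ADM, duct and acinar arrays, 1 array each. Filled points are well above background and open points are not. Kif12, Pkd2, Pkhd1, Nek8, Tulp3 and Foxj1 have their duct point far to the right of the other points, while the points of Bbs9 lie close together.

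More cilium genes were higher than lower in duct cells set against acinar cells. Of the 33 genes compared, 14 were at least 2-fold higher in duct (42.4%, against 27.4% of all 13826 genes compared) and 6 were lower (18.2%, against 24.6%). The other 13 had a smaller difference or a smaller bound. The median of the 33 differences was 0.87 log2 units, with 0.00 over all genes, and was positive under all 9 alternative settings, between 0.23 and 1.25. In 11 of the 33 genes the difference is a bound. With arrays scaled on their medians, 18 were higher and 4 lower (34.2% and 18.6% of all genes), and the median of the set was 0.97 above that of all genes.

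Against duct cells, ADM cells had lower levels of the same gene set more often than higher ones. Of 34 genes compared, 17 were at least 2-fold lower in ADM (50%, against 24.8% of all 14475 genes compared), 7 were higher (20.6%, against 21.6%) and 10 lay within 2-fold. The median was -0.90 log2 units, with -0.05 over all genes, and was negative under all 9 alternatives, between -1.10 and -0.31. With arrays scaled on their medians, 4 were higher and 17 lower (19.2% and 27.9% of all genes), with the median of the set at -0.86 relative to all genes. This comparison and the preceding one use the same duct array, so they are not independent of each other.

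Against acinar cells, ADM cells had a median difference near 0 over the set, on an acinar array that the duct comparison shares. Of 32 genes compared, 10 were at least 2-fold higher in ADM (31.2%, against 21.8% of all 13632 genes compared) and 7 were lower (21.9%, against 22%). The other 15 lay within 2-fold or had a bound that did. The median was -0.07 log2 units, with 0.00 over all genes. The median lay between -0.32 and 0.01 under the alternatives. Normexp background correction left 2 of the 32 higher and 1 lower, against 12.5% and 6.92% of all genes. The share of the set that was higher thus lay below that of all genes with normexp, and above it without.

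**Figure D2:**
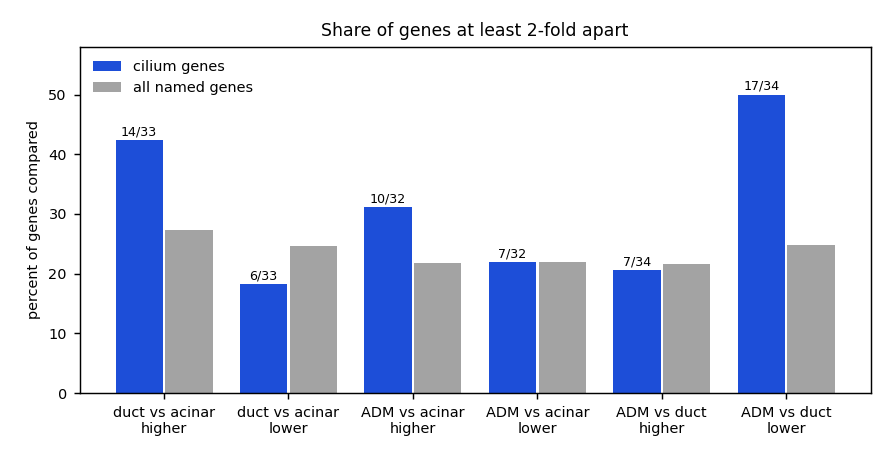
Percent of compared genes at least 2-fold higher or lower (y axis) among the cilium genes (blue, with counts) and among all named genes (grey) for duct vs acinar, ADM vs acinar and ADM vs duct. The highest blue bars are those for genes lower in ADM than in duct (17 of 34) and higher in duct than in acinar (14 of 33).

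**Figure D3:**
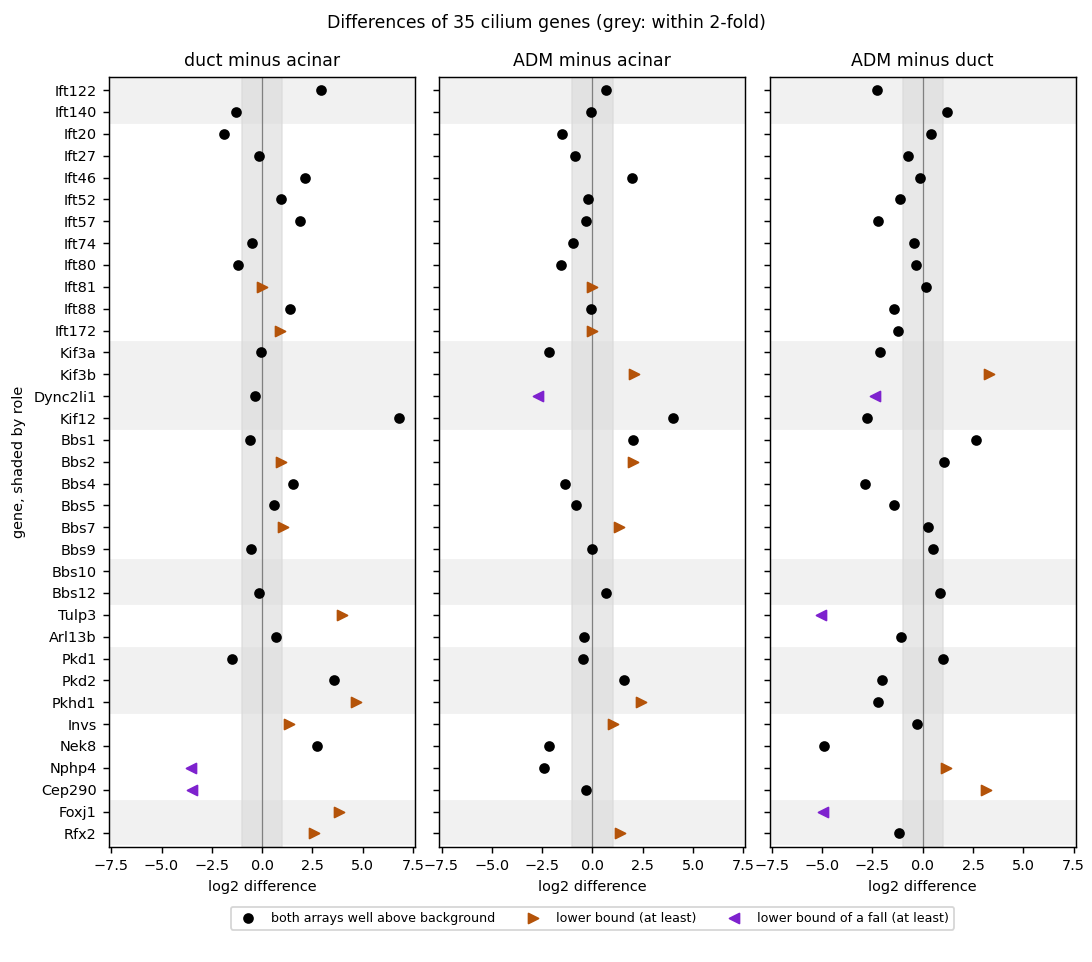
Log2 difference of each cilium gene in the 3 comparisons, with genes in the order of their roles. Black points were well above background on both arrays, triangles are bounds that point away from 0, and the grey band is within 2-fold. Kif12 stands farthest to the right in duct minus acinar (6.796) and in ADM minus acinar (4.01).

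The motors held the widest difference of the set. Kif12, a kinesin-family gene, had levels of 2.13 in ADM, 4.91 in duct and -1.89 in acinar, from probe signals of 316, 2875.5 and 9.52 intensity units. Duct was 111-fold above acinar, and ADM was 16.2-fold above acinar and 6.88-fold below duct. The acinar level lay close to the lowest that passed the background flag on that array (-2.04), so both folds over acinar rest on a dim signal. The scanner software's own error was 10.02% of the signal in ADM and 22.1% in acinar, which covers the spot and not the biology. All 3 differences stayed at least 2-fold under all 9 alternatives, although normexp reduced the duct difference to 4.67 log2 units and the ADM difference from acinar to 1.98.

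The motors of intraflagellar transport itself had other patterns than Kif12. Kif3a, a motor subunit of kinesin-2, had levels of -0.62 in ADM, 1.49 in duct and 1.54 in acinar by its brightest probe, which put ADM 4.34-fold below duct and 4.47-fold below acinar. The second Kif3a probe, designed on another transcript, opposed this, with ADM at least 3.11 log2 units above duct and at least 1.98 above acinar, so the direction of Kif3a differed by probe. Kif3b, its partner subunit, had levels of 0.02 in ADM, -4.92 in duct and -2.85 in acinar, and only the ADM signal was well above background. ADM was at least 9.85-fold above duct and at least 4.19-fold above acinar for Kif3b, and both were within 2-fold by the mean of its probes (0.69 and 0.00 log2 units), as was the difference from acinar with normexp (0.57). Its other probe was not well above background on any array. Dync2li1, a light intermediate chain of dynein-2, went the other way, with levels of -5.27 in ADM, -0.79 in duct and -0.44 in acinar. It was at least 5.14-fold lower in ADM than in duct and at least 6.56-fold lower than in acinar, and these differences shrank to under 2-fold with normexp (-0.69 and -0.92 log2 units).

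Genes of the polycystin and fibrocystin proteins divided. Pkd2, the polycystin channel subunit, had levels of 4.15 in ADM, 6.19 in duct and 2.59 in acinar. Duct stood 12.1-fold above acinar, and ADM lay between, 2.95-fold above acinar and 4.09-fold below duct. Pkhd1, which encodes fibrocystin, had levels of 0.39 in ADM, 2.60 in duct and -2.37 in acinar, the last not well above background. Duct was at least 24.96-fold above acinar, and ADM was at least 5.41-fold above acinar and 4.61-fold below duct. With normexp the ADM difference from acinar was within 2-fold (0.72 log2 units). Pkd1, which encodes polycystin-1, the partner of the Pkd2 product, ran against both, with levels of 1.54 in ADM, 0.51 in duct and 2.00 in acinar. Pkd1 was 2.79-fold lower in duct than in acinar and 2.04-fold higher in ADM than in duct, and both differences were within 2-fold under normexp (-0.68 and 0.56 log2 units).

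Kif12, Pkd2, Pkhd1 and Rfx2 were the 4 genes that stepped down by at least 2-fold between duct and ADM and again between ADM and acinar, among 31 compared on all pairs of arrays (12.9%, against 4.16% of 12363 genes). Nphp4 was the 1 gene with the opposite steps (3.23%, against 4.24%). Duct stood at least 2-fold above both other populations in 9 of the 31 genes (29%, against 14.6%), and acinar at least 2-fold below both others in 7 (22.6%, against 14%). ADM stood at least 2-fold below both others in 4 (Bbs4, Dync2li1, Kif3a and Nek8; 12.9%, against 8.15%) and above both in 2 (6.45%, against 7.22%). Duct was below both others in 4 (12.9%, against 12.6%), and acinar above both in 3 (9.68%, against 12.5%). Genes well above background on a single array lack a comparison and are in none of these counts, among members and all genes alike. Tulp3 and Foxj1 (duct alone) and Kif3b (ADM alone) were left out in this way.

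The nephronophthisis genes, which serve the inversin compartment and the transition zone, had no common direction. Nek8, a kinase of the inversin compartment, had levels of -1.87 in ADM, 3.02 in duct and 0.28 in acinar. Its ADM level was 29.6-fold below duct and 4.46-fold below acinar, and duct was 6.65-fold above acinar. The ADM difference from acinar was within 2-fold with normexp (-0.87 log2 units). Invs, which encodes inversin, had levels of -1.01 in ADM, -0.73 in duct and -3.63 in acinar, the last not well above background. Duct was at least 2.49-fold and ADM at least 2.06-fold above acinar for Invs, and both differences were within 2-fold with normexp (0.23 and 0.20 log2 units).

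Of the transition zone members, Cep290, a large tether between microtubules and membrane, had levels of -0.0038 in ADM, -3.17 in duct and 0.30 in acinar. The duct signal was not well above background, and Cep290 was at least 11.04-fold lower in duct than in acinar, with ADM at least 8.96-fold above duct. Nphp4, a scaffold of the same zone, had levels of -2.14 in ADM, -5.47 in duct and 0.27 in acinar by its brightest probe, which gave ADM 5.30-fold below acinar. Its other probe was well above background in duct alone. For ADM against duct the brightest probe gave a bound of 1.14 log2 units and the other -0.90, and for duct against acinar the other probe gave no direction.

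The genes of membrane entry were both at least 2-fold lower in ADM than in duct. Tulp3, an adaptor that brings receptors into the cilium with IFT-A, had levels of -3.21 in ADM, 1.91 in duct and -2.50 in acinar, and only duct was well above background. Tulp3 was at least 15.5-fold higher in duct than in acinar and at least 33.4-fold lower in ADM than in duct. Arl13b, a small GTPase of the ciliary membrane, had levels of -2.12 in ADM, -1.02 in duct and -1.71 in acinar. It was 2.14-fold lower in ADM than in duct, with a bound of -1.97 log2 units from its second probe, and the difference was within 2-fold with normexp (-0.16) and in the authors' value table. Between duct and acinar it lay within 2-fold (0.68).

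The transcription factors were both highest in duct. Foxj1, the regulator of motile cilium programmes, had levels of -4.50 in ADM, 1.80 in duct and -4.202 in acinar, from probe signals of 3.20 in ADM, 333 in duct and 1.91 in acinar; the first and last were not well above background. The Foxj1 level was at least 14.4-fold higher in duct than in acinar and at least 30.9-fold lower in ADM than in duct. Rfx2, an X-box binding factor, had levels of -0.68 in ADM, 0.51 in duct and -3.28 in acinar, the last not well above background. For Rfx2, duct was at least 5.87-fold and ADM at least 2.58-fold above acinar, and ADM was 2.28-fold below duct. All 3 Rfx2 differences were within 2-fold with normexp (0.90, 0.26 and -0.64 log2 units).

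IFT-B was mixed, and at least 5 of its 10 genes were within 2-fold in each comparison. Among these, Ift81 and Ift172 had only bounds against acinar. Between duct and acinar, 3 were higher, 2 lower and 5 within 2-fold (27.4% higher and 24.6% lower over all genes). Between ADM and acinar, 1 was higher, 2 lower and 7 within (21.8% and 22% over all genes). Between ADM and duct, 0 were higher, 4 lower and 6 within (21.6% and 24.8%). Ift57, a peripheral IFT-B subunit, had levels of 0.64 in ADM, 2.85 in duct and 0.96 in acinar, which put duct 3.70-fold above acinar and ADM 4.63-fold below duct. Ift88, a core subunit without which mouse cilia do not assemble properly, had levels of 0.45 in ADM, 1.88 in duct and 0.49 in acinar. Ift88 was 2.61-fold higher in duct than in acinar and 2.70-fold lower in ADM than in duct, and ADM and acinar differed by -0.05. In Ift57 and Ift88 the ADM and acinar arrays were therefore close (-0.32 and -0.05) and duct stood apart.

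Ift20 and Ift80 were instead highest in acinar. Ift20, the subunit that also resides at the Golgi, had levels of 1.62 in ADM, 1.20 in duct and 3.11 in acinar. The Ift20 level was 3.76-fold lower in duct and 2.81-fold lower in ADM than in acinar. Ift80, a peripheral IFT-B subunit, had levels of -0.01 in ADM, 0.34 in duct and 1.54 in acinar, which put duct 2.31-fold and ADM 2.95-fold below acinar. With normexp, Ift20 stayed at least 2-fold lower in duct, while Ift80 did not (-0.56 log2 units). Ift46, a core subunit, was lowest in acinar, with levels of 0.98 in ADM, 1.13 in duct and -1.01 in acinar. It was 4.39-fold higher in duct and 3.98-fold higher in ADM than in acinar by its brightest probe, while its second probe was well above background in ADM alone.

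The remaining IFT-B genes differed less. Ift27, a small GTPase, had levels of 0.80 in ADM, 1.51 in duct and 1.68 in acinar, and lay within 2-fold in all 3 comparisons. So did Ift74 by its brightest probe, at 0.58 in ADM, 1.02 in duct and 1.55 in acinar. The second Ift74 probe, designed on another transcript, differed by -4.304 log2 units in ADM against duct and by -2.97 in ADM against acinar. In duct against acinar that probe gave 1.33 and the brightest -0.53, so the direction of Ift74 there differed by probe. Ift52, at -0.11 in ADM, 1.03 in duct and 0.09 in acinar, was 2.20-fold lower in ADM than in duct. Ift172, at -2.38 in ADM, -1.18 in duct and -4.25 in acinar, was 2.30-fold lower in ADM than in duct. Both were within 2-fold with normexp (-0.80 and -0.25 log2 units). Ift81, which binds tubulin cargo with Ift74, was dim, at -2.98 in ADM, -3.14 in duct and -4.31 in acinar, the last not well above background.

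The IFT-A genes opposed each other. Ift122, a core IFT-A subunit, had levels of -0.15 in ADM, 2.13 in duct and -0.81 in acinar, which put duct 7.70-fold above acinar and ADM 4.88-fold below duct. Its second probe gave -0.36 log2 units for duct against acinar and -0.77 for ADM against duct, so the size of the first difference and its sign rest on 1 probe. Ift140 had levels of -0.62 in ADM, -1.85 in duct and -0.54 in acinar, and was 2.49-fold lower in duct than in acinar and 2.34-fold higher in ADM than in duct. Both Ift140 differences were within 2-fold with normexp (-0.72 and 0.66), and the difference from acinar was so with median scaling as well.

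Among the 6 BBSome genes, 2 were at least 2-fold higher and 0 lower in duct than in acinar (27.4% and 24.6% of all genes). In ADM against acinar, 3 were higher and 1 lower (21.8% and 22% of all genes). In ADM against duct, 2 were higher and 2 lower (21.6% and 24.8%). With 6 genes, these counts give no lean for the group. Bbs1 and Bbs2 stood in ADM at least 2-fold above both other populations. Bbs1 had levels of 0.34 in ADM, -2.29 in duct and -1.67 in acinar, but for ADM against duct its second probe gave a bound of -1.77 log2 units and its brightest 2.63, so its direction differed by probe. Bbs2 had levels of -0.01 in ADM, -1.09 in duct and -4.09 in acinar, and stood in ADM at least 4.10-fold above acinar and 2.11-fold above duct. The difference of Bbs2 from duct was within 2-fold with normexp (0.67) and with median scaling.

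Bbs4 had the reverse pattern, with levels of -2.91 in ADM, -0.03 in duct and -1.55 in acinar. It was 7.38-fold lower in ADM than in duct and 2.58-fold lower than in acinar, and normexp brought both within 2-fold (-0.84 and -0.52). Bbs5, at -1.18 in ADM, 0.24 in duct and -0.34 in acinar, was 2.66-fold lower in ADM than in duct, and its second probe gave a bound of -0.16 log2 units. Bbs7, at -0.73 in ADM, -1.005 in duct and -3.27 in acinar, was in duct at least 2.06-fold and in ADM at least 2.49-fold above acinar, and neither was 2-fold with normexp (0.07 and 0.29). Bbs9 was within 2-fold in every comparison, at 3.47 in ADM, 2.96 in duct and 3.50 in acinar. Of the chaperonin-like genes that assemble the BBSome, Bbs12 lay within 2-fold in every comparison, at -0.83 in ADM, -1.67 in duct and -1.51 in acinar. Bbs10, at -3.47 in ADM, -4.47 in duct and -2.89 in acinar, was not well above background and could not be compared.

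The probes of 1 gene could differ in sign. Among the 11 genes with 2 probes, both gave a value in 6 for duct against acinar, in 4 for ADM against acinar and in 8 for ADM against duct. Their signs were opposed in 3 of the 6, 2 of the 4 and 4 of the 8. A second-probe bound of 0, which has no sign, was not counted as opposed. The 8 genes that stayed at least 2-fold higher in duct than in acinar under every alternative that gave a value were Kif12, Pkhd1, Pkd2, Nek8, Tulp3, Foxj1, Ift57 and Ift88. All 8 had 1 probe each, so none has a second probe as a check. The share of all named genes that would stay so was not computed, here or for the counts that follow. Those 8 were also the genes that stayed at least 2-fold lower in ADM than in duct, a comparison with the same duct array. Against acinar, Kif12 and Pkd2 alone kept a 2-fold higher level in ADM under every such alternative, and 0 of the 7 genes lower in ADM than in acinar stayed so: Kif3a lost it by the second probe or the mean of probes and the other 6 under normexp.

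**Figure D4:**
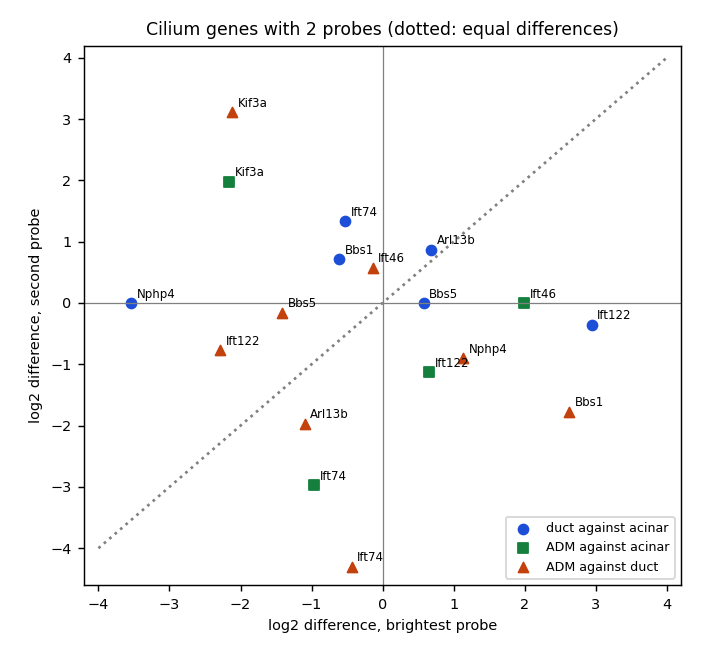
Log2 difference by the brightest probe (x axis) against the second probe (y axis) for cilium genes with both probes compared, in the 3 comparisons. Points on the dotted line would have equal differences. Kif3a and Bbs1 lie in opposite quadrants for ADM against duct, and Arl13b is lower by both probes.

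The other intraflagellar transport and BBSome genes were also more often higher than lower in duct. Of 20 other intraflagellar transport and BBSome genes compared, 9 were at least 2-fold higher and 3 lower in duct than in acinar, with a median of 0.84 (0.50 to 1.22 under the background and scaling alternatives). Most of the higher and of the lower genes had only a bound, whose direction was fixed by the array that passed the flag. For this and the lists below, the shares of all genes higher and lower were 27.4% and 24.6% in duct against acinar. They were 21.8% and 22% in ADM against acinar, and 21.6% and 24.8% in ADM against duct. Kifap3, the kinesin-2 accessory subunit, was 1.92 log2 units higher in duct and Cluap1 1.68 higher, while the motor gene Kif17 differed by -1.80. In ADM against duct, 2 of 19 were higher and 10 lower, with a median of -1.26 (-1.42 to -0.40), against 24.8% of all genes lower, and Ift43, Ttc8 and Wdr19 differed by -1.59, -1.57 and -1.50. In ADM against acinar, 6 of 18 were higher and 3 lower, with a median of 0.23. With normexp, ADM against duct had 1 higher and 5 lower, and ADM against acinar 3 higher and 0 lower.

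Transition zone and basal body genes were more often higher than lower in ADM and in duct, each against acinar. In duct, 8 of 14 were at least 2-fold higher than in acinar and 0 lower (median 1.46, and 0.57 to 1.84 under those alternatives), and in ADM, 9 of 13 were higher and 1 lower (median 2.36, and 0.77 to 2.59). The shares of all genes higher were 27.4% for duct and 21.8% for ADM. With normexp, 5 of the 14 were higher in duct and 3 of the 13 in ADM, with 0 lower in both. Tmem216 was 4.19 log2 units higher in duct and 2.73 higher in ADM, and B9d2 2.57 and 2.84 higher. Of the higher genes, only Tmem216 and B9d2 were well above background in acinar. The rest had only a bound, which could not have counted as lower, so both leans rest mostly on bounds. ADM and duct themselves had 5 genes higher and 7 lower of 16 (median -0.03, with either sign under the alternatives), among them Rpgr at -3.18 and Rpgrip1l at -2.53. Of these 19 genes, 13 were well above background in ADM, 14 in duct and 6 in acinar.

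Motile cilium genes as a group had no lean in duct against acinar. Of 14 compared, 5 were at least 2-fold higher and 4 lower in duct than in acinar (median 0.01), and in ADM against duct 1 was higher and 6 lower (median -0.49). Tekt2 and Dnaic1, parts of the motile axoneme, differed by -2.13 and -1.70 log2 units in ADM against duct, and Rsph9, a radial spoke gene, by -2.76. Dnah9, Dnaic2, Spag6, Spag16 and Ccno, 5 of the 20 on the array, were not well above background on any array.

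Hedgehog signalling runs through the cilium, and 10 of its 15 listed genes were well above background in ADM, 7 in duct and 4 in acinar. Shh, Gli2, Gli3, Hhip and Gpr161 were not so on any array. In ADM against duct 3 of 10 were higher and 4 lower, where Evc2 and Evc, which sit at the ciliary base, differed by -4.31 and -2.69 and the pathway target Gli1 by -3.54. In duct against acinar 3 of 9 were higher and 3 lower, and in ADM against acinar 2 of 10 were higher and 1 lower. With normexp, ADM against duct had 0 higher and 3 lower, and ADM against acinar 0 in either direction.

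Genes of the cystic kidney list were more often higher than lower in duct. Glis2 and Prkcsh were 4.56 and 3.87 log2 units higher in duct and 3.23 and 3.36 higher in ADM than in acinar. As a list, 5 of 11 genes were higher and 3 lower in duct than in acinar (median 0.82), against 27.4% and 24.6% of all genes. In ADM against duct, 1 of 10 was higher and 4 lower (median -0.64), against 21.6% and 24.8%.

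Genes of cilium disassembly and centriole capping divided. Aurka, the kinase that drives cilium resorption, differed by -4.11 log2 units in duct against acinar and was 1.61 higher in ADM than in duct, and Plk1 differed by -2.861 in duct against acinar. Hdac6, the tubulin deacetylase, and Ccp110, which caps the mother centriole, ran the other way, 2.49 and 3.46 higher in duct than in acinar. Of the list, 3 of 8 were higher and 4 lower in duct than in acinar (median -1.19), and 6 of 10 were higher and 2 lower in ADM than in duct (median 1.101). That count did not hold with normexp, which gave 1 higher and 2 lower of the 10, and 21.6% of all genes were higher in this comparison. Aurka and Plk1 are also mitotic genes.

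**Figure D5:**
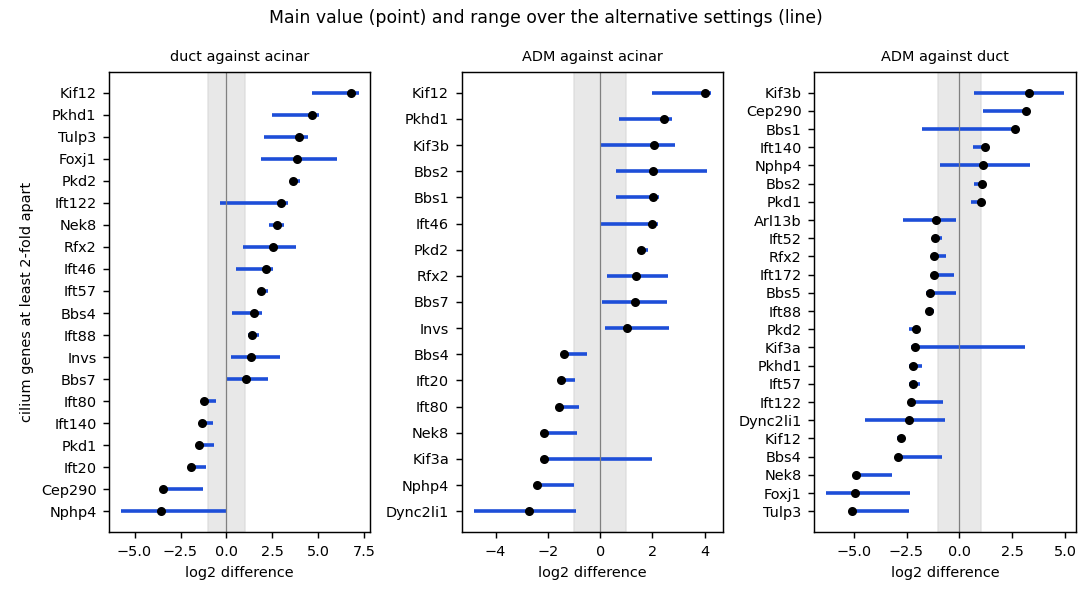
Cilium genes at least 2-fold apart in each comparison, with the reported log2 difference (point) and the range over the alternative settings that gave a value (line); the grey band is within 2-fold. The lines of Kif12 and Pkd2 stay outside the band in all 3 comparisons, and that of Kif3a crosses 0 in both ADM comparisons.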

How the data were processed

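Per the labels' protocols, amplification (Ovation Pico WTA) started from 1.181 ng of RNA, and Cy3 labelling from 2.0 µg of cDNA. Linear spot intensity was deposited for each array; per the file headers and the submitters' processing notes, Agilent Feature Extraction 11.5.1.1 subtracted background and removed spatial trends within each array, with no scaling between arrays. Flags of 0 or 1 for outlier, saturated and well-above-background spots were used as deposited. The deposited value table holds log2 values. Set against the scanner's log2 signals, each column was offset by a single number (ADM -6.17, duct -6.58, acinar -5.13; within 0.001 for all 32905 matched probes), so its scale is log2, uncentred by gene and unturned in sign; its column medians were -0.56, -0.63 and -0.57. The labels do not state how its probes were chosen.

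Of 62976 spots an array, 3671 controls and 110 to 117 outlier spots were left out, no spot was saturated, and spots of a probe were averaged to 55664 probes. The 75th percentile of log2 signal was subtracted. Probes were named by unversioned RefSeq accession through the RefSeq gene table of GRCm38.p6 (28020 named, 27644 not), for names only, as the arrays were annotated on mm9. For bounds, a dim side took its own signal or, if higher, that of the dimmest probe that passed the background flag on its array. The median SD between spots of a probe was 0.110 in ADM, 0.0896 in duct and 0.122 in acinar (log2), which covers spotting and scanning only; the number of arrays limits precision. Alternatives were normexp (limma 3.58.1 in R 4.3.3, offset 50, on median spot and background signals, since the tables used hold no mean signal), 3 other scalings, 2 filters, 2 probe rules and the authors' value table. Differences were computed in Python 3.11.15 and tested on simulated data with known shifts. The 35 genes, the comparison lists and the marker lists were chosen with earlier results of these data known. Members were all accounted for, and from each list up to 4 genes a comparison were named, those well above background on both arrays with the largest difference, plus genes at background on all arrays. Some named items are not reported here.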

Additional observations from a re-analysis of the deposited data

How the results depend on the processing

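Normexp background correction moved the counts most: 3 genes lower in duct than in acinar with a median of 0.23, 2 higher and 1 lower in ADM than in acinar, and 3 higher and 10 lower in ADM than in duct with a median of -0.31. Of all genes, normexp left 10.9% lower in duct than in acinar. It left 12.5% higher and 6.92% lower in ADM than in acinar, and 10.4% higher and 15% lower in ADM than in duct. Requiring the background flag on all 3 arrays left 21 genes, and fewer genes were compared there by construction. In duct against acinar, 8 were higher and 4 lower (median 0.58), against 24.1% and 25.2% of all genes. In ADM against acinar, 4 were higher and 5 lower (median -0.32), against 17.7% and 21.6%. In ADM against duct, 3 were higher and 11 lower (median -1.10), against 18% and 21.5%. Median scaling gave a median of 1.25 for duct against acinar. For ADM against duct it gave 4 higher (19.2% of all genes) and a median of -1.06. It moved the median of all genes by 0.28 and -0.16 in these comparisons. Without a filter the median for ADM against duct was -0.71, and the mean of the probes of a gene gave 4 higher there (21.5% of all genes). Among differences of at least 2-fold, the second probe turned the sign for Ift122 in duct against acinar (-0.36). It did so for Kif3a in ADM against acinar (1.98) and against duct (3.11), and for Bbs1 (-1.77) and Nphp4 (-0.90) in ADM against duct. The mean of the probes turned Kif3a as well (0.99 and 0.50). The cause was not tested, and the other 62 counts and medians under the alternatives stayed within 1.5 times or within the spread of repeated spots. No paired analysis was possible because each group had 1 array.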

Other observations

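The genes whose 3 levels, each with its own mean subtracted, lay nearest to those of Kif12 among 9538 other genes well above background on all arrays included Ugt1a6b, S100a6, Scx and Pamr1, at Euclidean distances of 0.76 to 0.84 log2 units. Pamr1 had levels of 5.53 in ADM, 8.20 in duct and 2.49 in acinar. For Pkhd1, taken at its own acinar signal although that was not well above background, the nearest of 9539 genes were Ifit3, Wfdc18, Aqp1, Wdr6 and Nectin2, at 0.02 to 0.27 log2 units. Aqp1, a water channel and duct marker, had levels of 2.10 in ADM, 4.53 in duct and -0.67 in acinar. Each likeness rests on 3 arrays and is a description.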
